A study of Mus musculus with 2 samples.

Results

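The 40 genes described here encode the proteins that license replication origins and run the replication fork. They were taken by symbol: Mcm2 to Mcm7, Orc1 to Orc6, the loading factors Cdc6 and Cdt1 with the inhibitor geminin (Gmnn), the activators Cdc45, Cdc7, Dbf4 and Mcm10, Gins1 to Gins4, Pcna with Rfc1 to Rfc5, the polymerase and primase genes Pola1, Pola2, Prim1, Prim2, Pold1 and Pole, the flap nuclease Fen1, the ligase Lig1, and Rpa1 to Rpa3. All 40 were found among 43346 Ensembl gene rows. The choice was by symbol and used no threshold on a measured value, but earlier results of these data were known when it was made. The cells were MEL, an immortalized mouse erythroleukemia line, which dimethyl sulfoxide (DMSO) drives towards red cell differentiation. Both libraries were total RNA of MEL cells that had received 2% DMSO for 5 days, and no other agent or genotype is labelled. They are 1 group of 2 libraries, called replicate 1 and replicate 2 as the labels number them, with 65109488 and 90856320 estimated counts. The labels call them biological replicates but name a shared biosample, and how much of their spread is technical is not known. Untreated cells were not analysed here, so the values are levels in treated cells and say nothing of a response to DMSO.

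A replication origin is licensed in G1, when the origin recognition complex, Cdc6 and Cdt1 load the MCM hexamer onto DNA in an inactive form. Geminin binds Cdt1 and blocks renewed loading after S phase has begun. At S phase entry the kinase Cdc7 with its activator Dbf4, together with cyclin-dependent kinases, lets Cdc45 and the GINS complex join MCM to form the active helicase, and the polymerases, the sliding clamp PCNA and its loader RFC follow. E2F transcription factors are known to drive many of these genes at the entry to S phase, and terminal red cell precursors stop dividing as hemoglobin builds up.

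The E2F sequence was therefore looked for first, since the promoter letters can be shown beside the levels. RefSeq promoter windows (build GRCm38.p6, 250 bases before to 50 after the annotated start) were present for 32 of the 40 genes, in 40 windows. The search was for TTTCCCGC, TTTCGCGC, TTTGCCGC and TTTGGCGC on both strands. A match was present in 13 of 32 genes (40.6%), against 2.60% of all 27025 genes in the promoter table and 5.64% of the 6441 protein-coding genes at 1 TPM or more in both libraries. TPM is a level relative to all RNA in the table and corrected for transcript length. The 13 genes were Mcm3, Mcm5, Mcm6, Mcm7, Orc1, Orc3, Cdc6, Cdt1, Gins3, Rfc3, Pola1, Pold1 and Lig1. Mcm2 had none of these letters in its window. Mcm4, Gmnn, Gins1, Gins2, Gins4, Rfc2, Prim2 and Pole were not searched. A match is a description of the letters and not evidence of binding.

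The windows below show all sites found in the MCM, ORC, Cdc6 and Cdt1 genes with 9 bases on either side, fewer where the window searched ended, read 5′ to 3′ on the gene's strand, with the matching letters in capitals. They are shown because 3 of the 4 genes with more than 1 site are helicase genes and because ORC, Cdc6 and Cdt1 load that helicase. Coordinates are GRCm38.
Mcm5, chr8:75109347-75109376, plus strand: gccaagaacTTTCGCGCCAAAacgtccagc
Mcm6 upstream site, chr1:128359795-128359824, minus strand: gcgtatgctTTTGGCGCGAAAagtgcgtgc
Mcm6 downstream site, chr1:128359736-128359761, minus strand: ttggacgggTTTGGCGCgaagtagct
Mcm7 upstream site, chr5:138172032-138172057, minus strand: tttcgaaccGCGGGAAAcagggtgtc
Mcm7 downstream site, chr5:138171851-138171876, minus strand: gtgacgacgTTTCGCGCcaatttcgg
Mcm3 upstream site, chr1:20820277-20820302, minus strand: acttccgtgGCGGGAAAacttgggaa
Mcm3 downstream site, chr1:20820263-20820283, minus strand: ttgggaagtTTTGGCGCcaag
Orc1, chr4:108579418-108579443, plus strand: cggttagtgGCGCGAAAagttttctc
Orc3, chr4:34614967-34614992, minus strand: atgcctcccTTTCCCGCacgccccgc
Cdc6, chr11:98908004-98908029, plus strand: cggtggagaGCGGGAAAtcgcctggg
Cdt1, chr8:122568038-122568063, plus strand: aactaccttTTTGGCGCcatggcgca

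In Mcm5 and the upstream site of Mcm6, 2 matches on opposite strands overlap, so that the capitals run over both. Counting each such pair once gave 17 sites from 19 matches. Of these, 10 began before the annotated start and 7 at or after it. The 250 bases before the start of Mcm6 (chr1:128359706-128359955, minus strand, RefSeq GRCm38.p6) are given whole because they hold both of its sites, again in capitals.
Mcm6 upstream region: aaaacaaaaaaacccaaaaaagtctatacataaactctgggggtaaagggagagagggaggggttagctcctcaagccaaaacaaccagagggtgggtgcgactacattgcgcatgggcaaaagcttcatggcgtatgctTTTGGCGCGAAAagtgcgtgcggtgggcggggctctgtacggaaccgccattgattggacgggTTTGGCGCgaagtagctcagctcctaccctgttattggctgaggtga

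Within the 200 bases before the start alone, 9 of 32 genes (28.1%) held a match, against 1.83% of all genes in the table and 3.99% of the protein-coding genes at 1 TPM or more. The letters CCAAT were in 62.5% of the 32 genes, against 44.0% of those expressed genes, and the GC box GGGCGG in 75.0% against 73.6%, both strands searched. These last 2 motifs were added after the E2F result was seen.

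**Figure D1:**
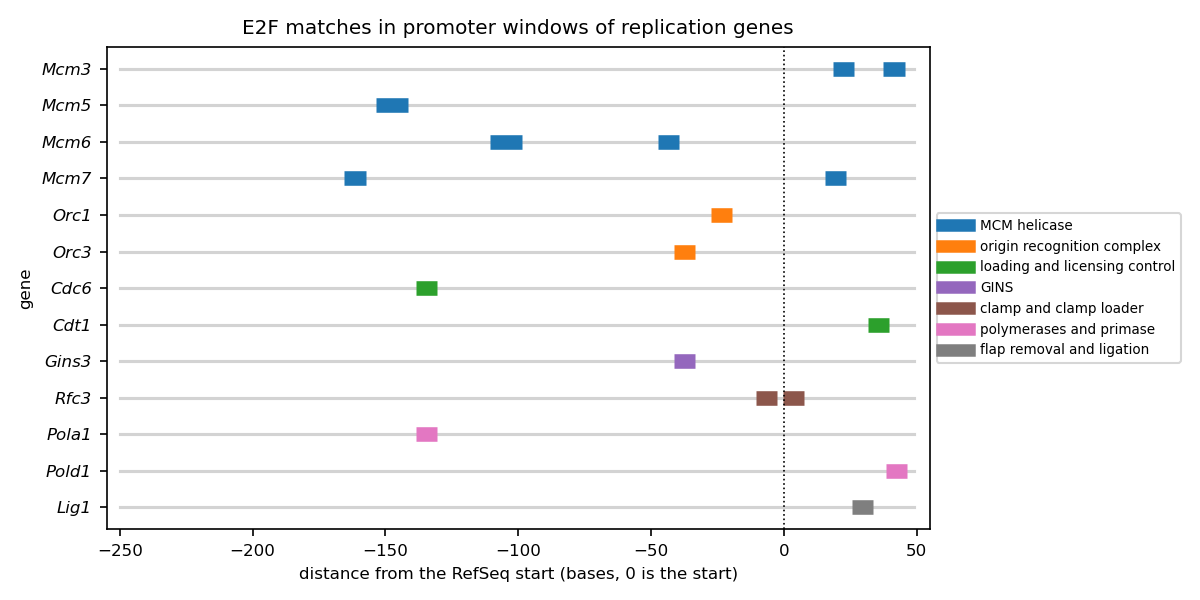
Position of E2F letters in the 13 replication genes that held them, in bases from the RefSeq start (0), with the grey line marking the window searched and each block a site coloured by role. The 17 sites lie between -165 and 46, and Mcm3, Mcm6, Mcm7 and Rfc3 have more than 1.

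Each library held every one of the 40 genes at 1 TPM or more, a level that 37.3% of 21474 protein-coding genes reached in both. The median level was 11.1 TPM in replicate 1 and 9.99 TPM in replicate 2, against 2.07 and 1.69 TPM over protein-coding genes above 0. The level of 39 of 40 was above that protein-coding median in both libraries, and by mean level 15 ranked above 90% of protein-coding genes above 0 TPM. Ranks ran from 49.4% for Gins3 to 98.0% for Pcna, a 31.6-fold span of mean level. Together the 40 genes held 0.440% and 0.428% of all counts. TPM values are low in absolute terms because protein-coding genes held 13.5% and 12.9% of the TPM total in this total RNA. In bulk RNA, fewer cells in S phase and less RNA per cell cannot be told apart.

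**Figure D2:**
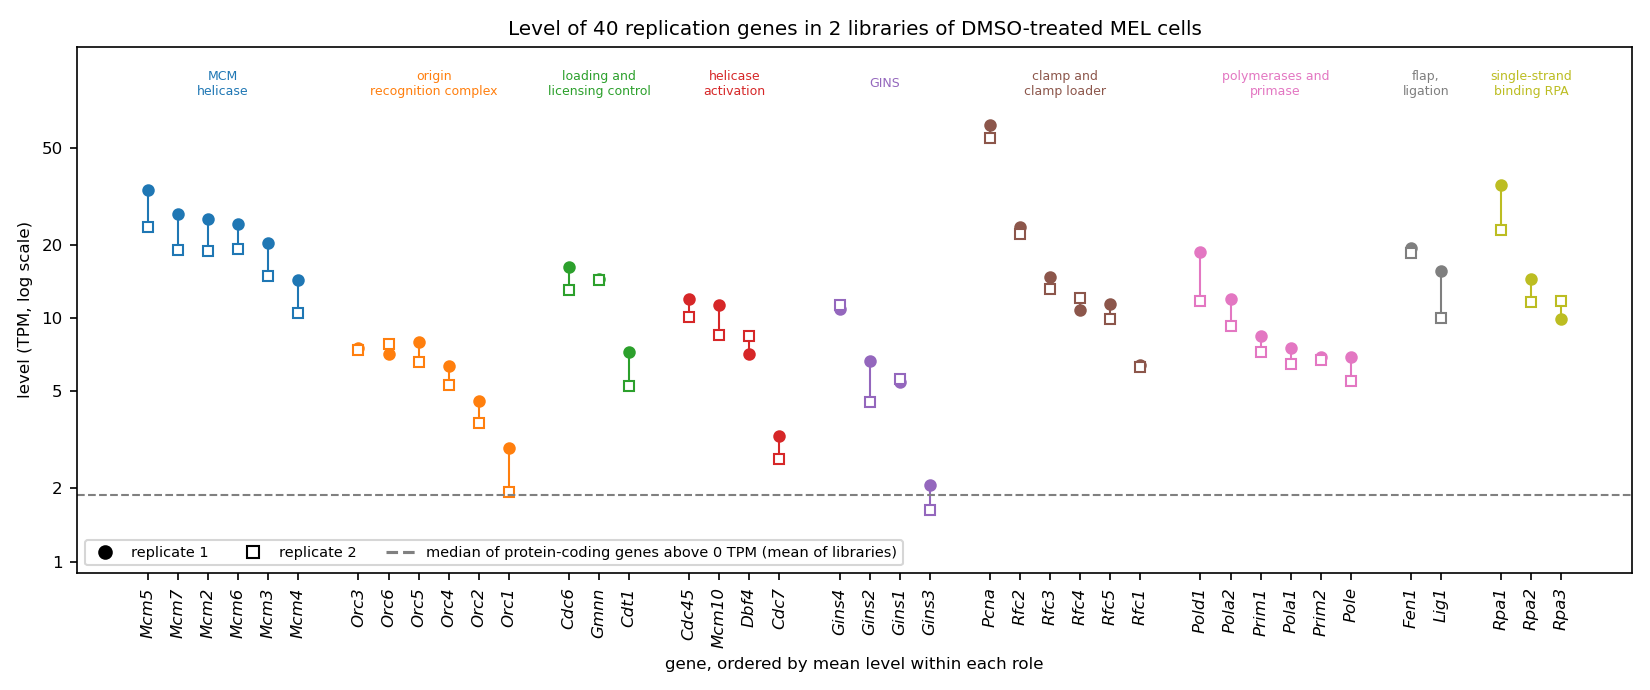
Level of each replication gene in TPM on a log scale, filled circles for replicate 1 and open squares for replicate 2, grouped by role and ordered by mean. All 40 pairs lie above 1 TPM, Pcna is highest at 61.9 and 54.8, and Orc1 and Gins3 lie nearest to the dashed protein-coding median.

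The MCM helicase genes were among the most abundant of the set. Mcm5 was highest of the 6, at 33.7 TPM in replicate 1 and 23.7 TPM in replicate 2. Mcm7 had 26.8 and 19.0 TPM, and Mcm2 had 25.5 and 18.8 TPM. All 6 encode subunits of a ring with 1 copy of each, so equal amounts of protein are needed in the complex. Mcm6 stood at 24.3 and 19.3 TPM, and Mcm3 at 20.4 and 14.9 TPM. Mcm4 was lowest in both libraries, at 14.3 and 10.5 TPM. The highest over the lowest level was 2.30 ± 0.0765 (SD, n = 2), with 2.35 in replicate 1 and 2.24 in replicate 2. Mcm2 and Mcm6 changed places between libraries and cannot be ordered. Mcm3 and Mcm4 did not overlap.

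The origin recognition complex was less abundant. Its median level over 6 subunits was 6.74 and 5.97 TPM, and the MCM median was 3.69 times that in replicate 1 and 3.17 times in replicate 2, or 5.80 and 4.83 times over protein-coding transcripts alone. Orc1, the large ATPase subunit whose protein is known to be degraded in cycling cells after S phase begins, was lowest, at 2.92 and 1.94 TPM. It was 0.411 of the median of Orc2 to Orc6 in replicate 1 and 0.294 in replicate 2, a mean of 0.352 ± 0.0826 (SD, n = 2). Orc2 was next lowest, at 4.58 and 3.70 TPM. Orc4 averaged 5.85 ± 0.735 TPM and Orc5 7.30 ± 0.990 TPM (SD, n = 2). Over all transcripts Orc3 led by mean, at 7.52 and 7.43 TPM, but over protein-coding transcripts alone it had 2.71 and 3.41 TPM and stood below Orc6, Orc5 and Orc2 in both libraries. Orc6, the smallest subunit, had 7.11 and 7.82 TPM. Orc3, Orc5 and Orc6 could not be ordered, while Orc5, Orc4, Orc2 and Orc1 came in that order in both libraries without overlap, in levels over all transcripts.

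Of the loading factors, Cdc6 had 16.2 TPM in replicate 1 and 13.1 TPM in replicate 2. It is the ATPase that completes the loading ring on origin-bound ORC. Cdt1, which carries MCM to the origin, had 7.28 and 5.25 TPM. Its inhibitor Gmnn had 14.5 and 14.4 TPM. Geminin message therefore exceeded Cdt1 message 1.99-fold in replicate 1 and 2.74-fold in replicate 2, a mean ratio of 2.37 ± 0.529 (SD, n = 2). Cdc6 over Cdt1 was 2.22 and 2.50. Cdc6 and Gmnn changed order between libraries, and both were above Cdt1 in each. Among genes known for Cdt1 and geminin turnover, Ddb1, the adaptor of the CUL4 ubiquitin ligase that destroys Cdt1 in S phase, averaged 38.6 TPM and Cul4b 2.41 TPM.

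Helicase activation genes spanned a wider range. Cdc45, the helicase cofactor, had 12.02 and 10.14 TPM. Mcm10, which acts as the helicase starts to unwind, had 11.3 and 8.54 TPM. Dbf4 had 7.11 and 8.45 TPM, and was 1 of 6 members with a higher TPM in replicate 2. Its catalytic partner Cdc7 had 3.27 and 2.63 TPM, so that the regulator exceeded the kinase 2.17-fold in replicate 1 and 3.21-fold in replicate 2. The 2 genes did not overlap in level.

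GINS is a complex with 1 copy of each of 4 subunits, yet its messages differed more than those of MCM. Gins4 had 10.9 and 11.3 TPM, and Gins3 had 2.06 and 1.63 TPM. The ratio of Gins4 to Gins3 was 5.30 and 6.92, against 2.35 and 2.24 for the highest over the lowest MCM gene. Gins1 had 5.45 and 5.64 TPM. Gins2 had 6.70 and 4.51 TPM, and over all transcripts its order against Gins1 was reversed between libraries. Over protein-coding transcripts alone Gins2 had 2.11 and 1.80 TPM, below the 4.90 and 5.10 TPM of Gins1 in both libraries. Gins3 lay just below the protein-coding median in both libraries, the only member to do so.

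Pcna, the sliding clamp that holds the polymerases on DNA, was the highest member in both libraries, at 61.9 and 54.8 TPM. It exceeded the median of the small loader subunits Rfc2 to Rfc5 4.72-fold and 4.33-fold, or 6.27-fold and 5.91-fold over protein-coding transcripts. Rfc2 was the highest loader gene, at 23.7 and 22.1 TPM. Rfc1, the large subunit of the loader that is specific to replication, was the lowest, at 6.42 and 6.29 TPM. Rfc2 over Rfc1 was 3.69 and 3.52 in the libraries, although the assembled loader holds each once. Rfc3 averaged 14.0 ± 1.12 TPM, Rfc4 11.5 ± 0.891 TPM and Rfc5 10.7 ± 1.04 TPM (SD, n = 2). Rfc4 and Rfc5 changed order.

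Among the polymerases, Pold1, the catalytic subunit of the lagging-strand polymerase delta, was highest by mean over all transcripts, at 18.7 and 11.7 TPM. Over protein-coding transcripts alone it had 8.08 and 4.98 TPM, and Pola2, with 11.95 and 9.26 TPM, was above it in both libraries. Pole, the catalytic subunit of the leading-strand polymerase epsilon, was lowest by mean, at 6.96 and 5.53 TPM. Pold1 over Pole was 2.69 in replicate 1 and 2.12 in replicate 2, or 1.72 and 1.36 over protein-coding transcripts. The priming polymerase genes lay between them by mean over all transcripts. Pola2 averaged 10.6 ± 1.91 TPM, the primase subunits Prim1 7.86 ± 0.820 TPM and Prim2 6.81 ± 0.141 TPM, and the catalytic subunit Pola1 7.02 ± 0.771 TPM (SD, n = 2). Pola1, at 7.56 and 6.47 TPM, was above Pole in both libraries, though their ranges overlapped. Prim2, at 6.91 and 6.71 TPM, changed order with both and could not be placed.

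For the joining of Okazaki fragments, Fen1, which cuts the displaced flap, had 19.4 and 18.5 TPM. Lig1, which seals the nick, had 15.6 and 10 TPM. Fen1 over Lig1 was 1.24 and 1.85 over all transcripts, and 8.09 and 8.81 over protein-coding transcripts, where Lig1 had 2.40 and 2.10 TPM. Of the single-strand binding complex RPA, the large subunit Rpa1 was highest, at 35.1 and 23.0 TPM, and the small subunit Rpa3 was lowest by mean, at 9.90 and 11.8 TPM. Rpa2 averaged 13.1 ± 2.04 TPM (SD, n = 2), and Rpa2 and Rpa3 changed order. Rpa1 over Rpa3 was 3.55 in replicate 1 and 1.95 in replicate 2, or 2.29 and 1.63 over protein-coding transcripts.

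These levels count all annotated transcripts of a gene, and for some members much of the level was not in protein-coding transcripts. Of the 40 genes, 7 had 1 annotated transcript and 33 had several. Transcripts annotated as retained intron held a median of 4.92% and 4.85% of the TPM of the 33 genes, against 3.78% and 2.95% over 6058 genes treated alike. A share above 20% in both libraries was seen in 7 of 33 (21.2%), against 17.1% of the 6058. These 7 were Gins2, Mcm10, Pold1, Lig1, Pole, Rfc5 and Rfc3, with 59.8% and 57.2% in Gins2 and 54.8% and 52.2% in Mcm10. Total RNA can hold unspliced precursor, and whether these reads come from precursor or from stable intron-retaining RNA was not tested. In counts the shares were smaller, at 41.2% and 26.9% in Gins2 and 29.4% and 28.2% in Mcm10, since TPM divides by transcript length.

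**Figure D3:**
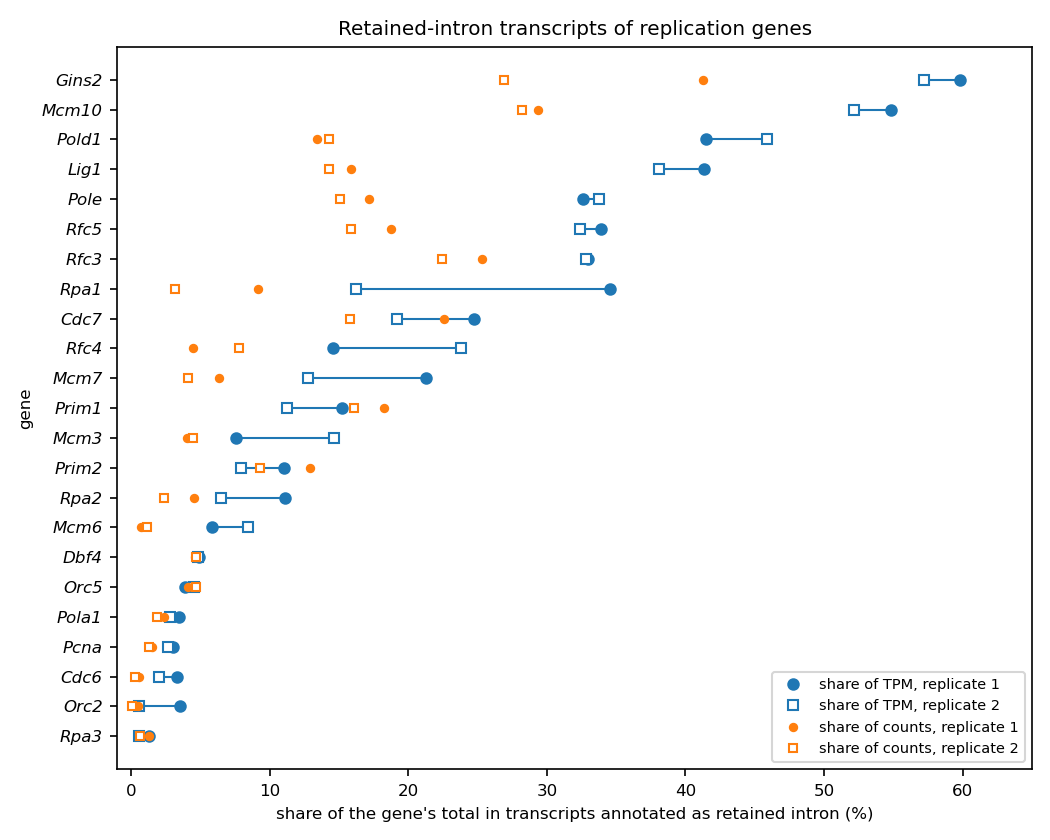
Share of each gene's TPM (blue) and counts (orange) in transcripts annotated as retained intron, for the replication genes with any, circles for replicate 1 and squares for replicate 2. Gins2 and Mcm10 lie above 50% of TPM in both libraries, and Rpa1 has 34.5% in replicate 1 against 16.2% in replicate 2.

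Lig1 had the lowest share of protein-coding transcripts among the 40 genes. Its leading transcript was Lig1-204, a retained-intron RNA of 946 bases, with 37.5% and 35.5% of the gene's TPM. Protein-coding transcripts held 15.4% and 21.0%, retained-intron transcripts together 41.4% and 38.1%, and other types the rest. Gins2 was led by the retained-intron transcript Gins2-204 of 511 bases (39.6% and 46.0%), and its protein-coding level was 2.11 and 1.80 TPM. Orc4 was led by the processed transcript Orc4-205 (28.7% and 28.1%). Orc3, Pold1 and Mcm10 were led by a protein-coding transcript that held less than 50%: Orc3-201 with 28.4% and 34.0%, Pold1-201 with 43.2% and 42.5%, and Mcm10-201 with 38.8% and 41.1%. For Rfc1 the leading transcript, with 62.3% and 60.4%, was in the authors' table but was not matched to the annotation used here, so its type is not stated. Over protein-coding transcripts alone the 40 genes had a median of 7.82 TPM over the mean of the libraries, and Orc1 stood at 0.487 of the median of Orc2 to Orc6. The same transcript led in both libraries for 39 of 40 genes. The exception was Cdc6, where Cdc6-202 held 55.8% and 44.4% and Cdc6-201 held 36.0% and 49.6%, both of them protein-coding.

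None of the 40 genes differed by 1.5-fold or more between the libraries, where 21.9% of 15272 genes did, 9.06% higher in replicate 2 and 12.8% lower. The genes compared had 10 or more counts in replicate 1 or in replicate 2. Counts were scaled by TMM, a normalization over all genes, with 0.5 added, and the result is a fold with no test, since both libraries belong to 1 group. Among 7042 protein-coding genes with at least 1467 counts in either library, as every member had, 8.59% were past 1.5-fold. The median size of the log2 ratio was 0.17 for the members, 0.20 for those deep genes and 0.28 for all genes. In direction, the members' median log2 ratio of replicate 2 over replicate 1 was 0.04, with -0.00369 over all genes tested. It was above 0 in 23 members and below 0 in 17. Exact 95% intervals, which cover counting error only, lay above 0 in 19, below 0 in 12 and across 0 in 9. On deposited TPM the members' median was -0.29, and that of the tested genes with a TPM above 0 was -0.30. Not all genes were lower on that scale: 702 of 15016 were past 1.5-fold higher. Of the 23 members above 0 on scaled counts, 17 were below 0 on deposited TPM. On that scale 4 of 40 members, Orc1, Pold1, Lig1 and Rpa1, were past 1.5-fold, against 30.4% of 15016 genes, and all 4 were lower in replicate 2, as 25.8% of those genes were. On TPM rescaled to protein-coding genes 1 member, Pold1, was past it, against 27.7%. At 1.2-fold on scaled counts 13 members (32.5%) were past it, against 52.9% of genes. Of all genes past 1.5-fold, 41.4% were higher in replicate 2 with scaled counts, against 15.4% with deposited TPM and 18.6% with TPM rescaled to protein-coding genes.

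On scaled counts the roles differed in sign between the libraries. All 6 MCM genes were lower in replicate 2, with log2 ratios from -0.28 for Mcm3 to -0.09 for Mcm6 and Mcm7, and each interval was below 0. Pcna and the 5 RFC genes were all higher, from 0.06 for Rfc3 to 0.32 for Rfc4, with the interval of Rfc3 spanning 0. These signs held under each of 7 other scalings, minimums and count types, all of them on counts. On deposited TPM the MCM genes were again all lower. Of the clamp and loader genes only Rfc4 was above 0 there, at 0.16, with Pcna at -0.18 and Rfc5 at -0.20. The median of the tested genes on that scale was itself below 0, at -0.30. All 6 MCM genes lay below that median, from -0.51 for Mcm5 to -0.33 for Mcm6. Each clamp and loader gene lay above it, with Rfc5 lowest. On TPM rescaled to protein-coding genes Rfc1 (0.03) and Rfc4 (0.22) were higher, and the other clamp and loader genes were lower. Dbf4 was the member with the largest positive ratio on scaled counts. It had 3697 counts in replicate 1 and 7364 in replicate 2, a log2 ratio of 0.54 with an interval from 0.49 to 0.60, and thus 1.46-fold. Rpa3 followed with 1232 and 2403 counts and a log2 ratio of 0.51. Pold1 was at the other end, with 8162 and 8238 counts in libraries of unequal depth and a log2 ratio of -0.44, with an interval from -0.48 to -0.39. Orc1 stood at -0.31, while Orc3, Orc4 and Orc6 stood at 0.37, 0.28 and 0.41. Gins2 was at -0.29 and Gins1 and Gins4 at 0.32.

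**Figure D4:**
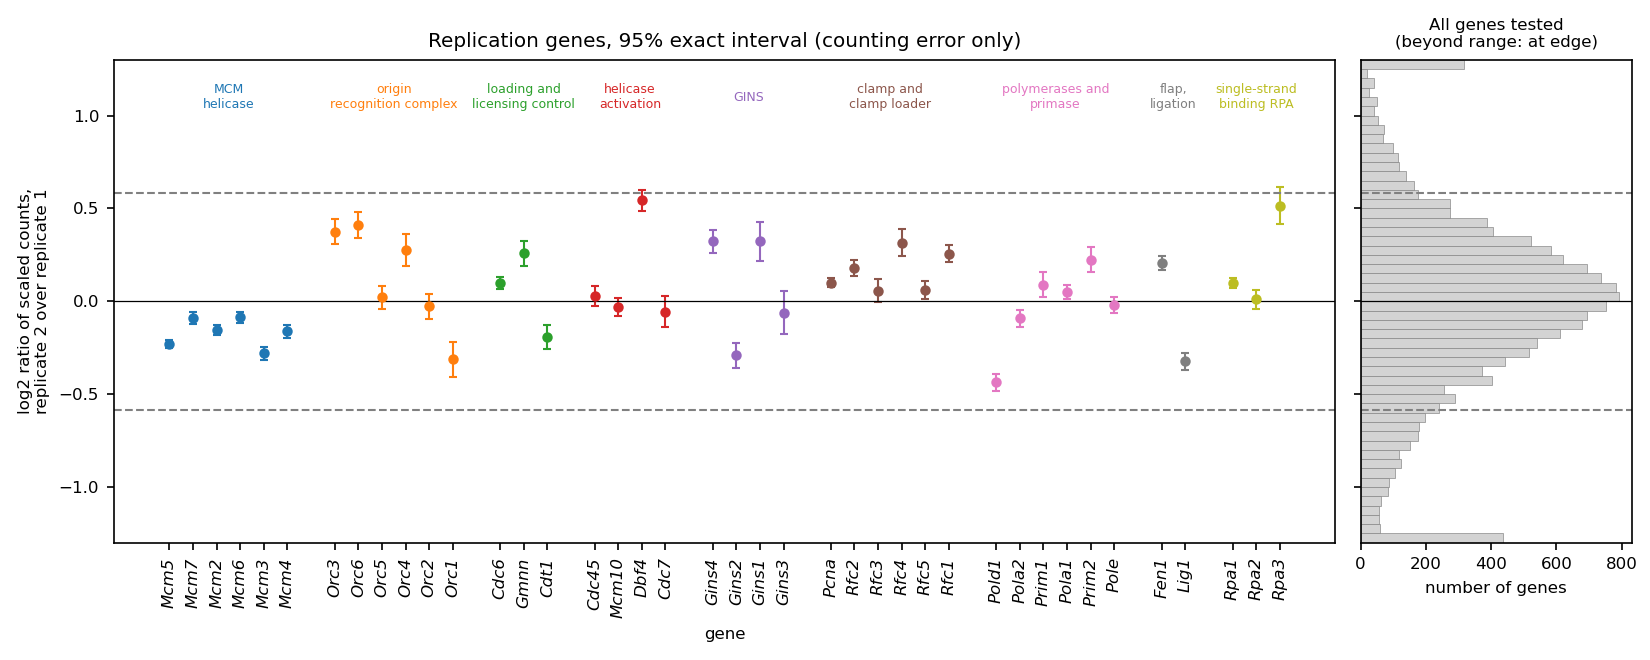
Left, log2 ratio of scaled counts of replicate 2 over replicate 1 for each replication gene with its exact 95% interval, and dashed lines at 1.5-fold. Right, the same ratio over all 15272 genes tested. All 40 points lie between the dashed lines, the 6 MCM genes below 0 and the 6 clamp and clamp loader genes above it.

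The library difference moved with base composition and, among the members, with transcript length. Across the 40 members, the log2 ratio and the G+C of the most abundant protein-coding transcript had a Spearman rho of -0.61 and a Pearson r of -0.63. With the length of that transcript the rho was -0.51 among the members, and 0.04 over all protein-coding genes tested. G+C is that of the transcript model in GENCODE M21, a later release than the one quantified. Model and quantified transcript can differ in length, as for Rfc2-201 with 4995 against 1518 bases. For Rfc1 the transcript used was Rfc1-201, since the leading one was not matched. The points share 2 libraries and are not independent, so this is a description across genes. With G+C, the rho over 12068 protein-coding genes tested was -0.23, and over 7032 as deep as the members it was -0.29. The 10 members of lowest G+C, from 36.8% to 45.1%, had a median log2 ratio of 0.30, and 9 were higher in replicate 2. The 10 of highest G+C, from 51.9% to 60.7%, had a median of -0.21, and 1 was higher. Pold1 had the highest G+C of the set at 60.7%. Of the MCM genes, Mcm4 at 45.5% was lower in replicate 2 with a log2 ratio of -0.16, and Mcm2 at 55.5% with -0.16. Erythroid markers also differed between the libraries: all 9 reached 1 TPM, 5 were past 1.5-fold higher in replicate 2, and their sum was 6582 TPM in replicate 1 and 13707 TPM in replicate 2. Myeloid, lymphoid and stromal markers were all under 1 TPM, with sums of 0.22 and 0.14, 0.03 and 0.03, and 0.34 and 0.18 TPM. The part of base composition, of transcript length and of the erythroid difference in the members' ratios was not tested.

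**Figure D5:**
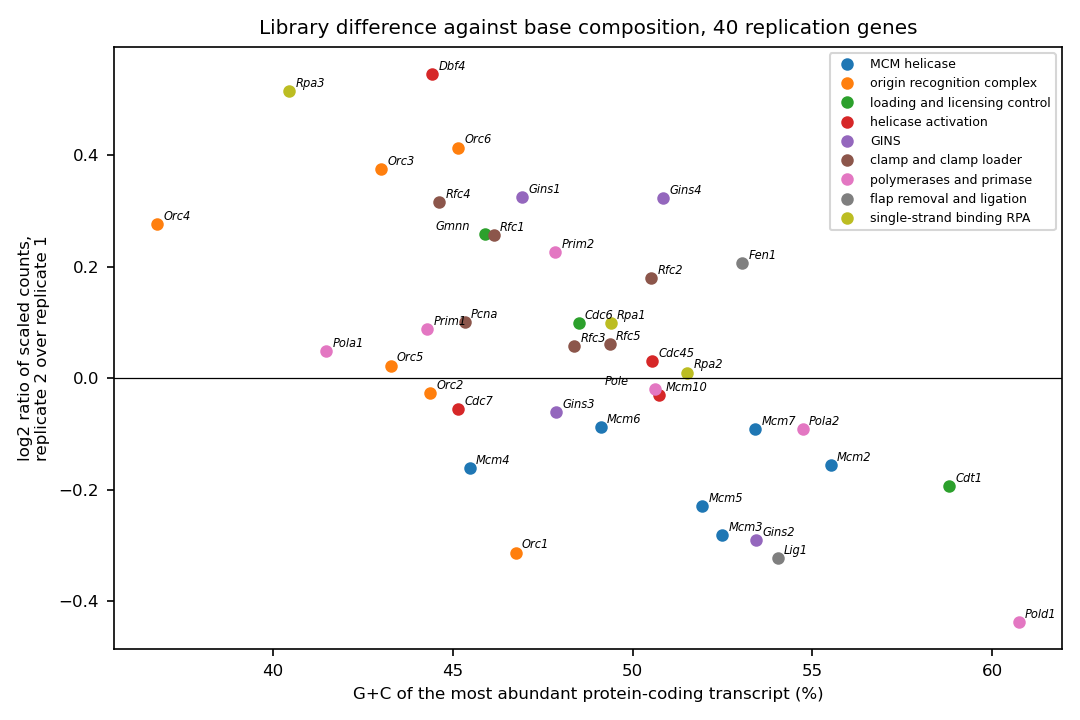
Log2 ratio of scaled counts of replicate 2 over replicate 1 against G+C of the most abundant protein-coding transcript, 1 point for each of the 40 replication genes, coloured by role. Low G+C genes such as Rpa3 and Orc4 lie above 0, and Pold1, at 60.7% G+C, is lowest at -0.44.

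Rpa1, the large RPA subunit, had 17909 and 26194 counts, a log2 ratio of 0.10 after scaling. On deposited TPM its log2 ratio was -0.61, against the median of -0.30 over the tested genes. The retained-intron transcript Rpa1-205 of 716 bases held 34.5% of its TPM in replicate 1 and 16.2% in replicate 2, but 9.17% and 3.17% of its counts. The protein-coding transcript Rpa1-202 of 5077 bases went the other way, with 6.44% and 20.3% of the gene's TPM, and 2685 and 9184 counts. Over protein-coding transcripts alone the log2 TPM ratio of Rpa1 was -0.23, nearer to that median. The part of each transcript in the gap between counts and TPM was not tested.

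Gene position could also touch these counts. A protein-coding gene starting in the opposite direction within 1000 bases was found for 8 of 40 members (20%), against 12.9% of protein-coding genes at 1 TPM or more in both libraries. The closest pair was Orc3 with Rars2, an arginine tRNA synthetase gene of mitochondria, at 13 bases (chr4:34614944 and chr4:34614957). Rars2 had 5.75 and 3.69 TPM and a log2 ratio of -0.27, opposite in sign to the 0.37 of Orc3. Rpa3 and Umad1, 115 bases apart, had ratios of 0.51 and 0.43, and Dbf4 and Slc25a40, 134 bases apart, 0.54 and 0.28. The other pairs were Mcm4 with Prkdc, Orc1 with Prpf38a, Gins1 with Abhd12, Pole with Pxmp2 and Rpa1 with Smyd4. Exons of 10 members were overlapped by an opposite-strand gene at 1 TPM or more in at least 1 library, by 64 to 2758 bases. For Lig1 that gene was Zswim9, with 1.56 and 0.71 TPM. The share of all genes overlapped in this way is not given, so whether 10 of 40 is unusual cannot be said. The longest overlap was of Gins2 with Gse1, and Gse1 had 10459 and 14904 counts against 3327 and 3715 for Gins2. Whether the authors' counting used strand is not stated in the sources used here, so reads from such pairs cannot be assigned with certainty.

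Other genes of the pathway were present at lower levels. Of 53 listed genes in 10 lists, all 53 were tested, 50 reached 1 TPM in both libraries, and the median levels were 5.67 and 4.48 TPM. Their median log2 ratio was 0.01, and 1 of 53 was past 1.5-fold, against 21.9% of all genes tested. Among protein-coding genes with at least 1467 counts in either library that share was 8.59%, and some of the 53 had fewer counts than that. The 1 gene past 1.5-fold was Fbxo5, the inhibitor of the anaphase-promoting complex, which protects geminin from destruction in S phase. It had 2399 and 5321 counts, 5.57 and 7.51 TPM, and a log2 ratio of 0.70 with an interval from 0.63 to 0.77. No listed gene was past 1.5-fold lower.

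By mean level, the polymerase small subunits ran from Pold2 at 34.6 TPM to Pole2 at 2.43 TPM. Origin firing factors ran from Topbp1 at 19.8 TPM to Ticrr at 2.16 TPM. Fork protection genes ran from Tipin at 11.5 TPM to its partner Timeless at 5.23 TPM. The other clamp loaders and unloaders ran from Chtf8 at 14.4 TPM to Dscc1 at 1.99 TPM, both of them subunits of the loader used in cohesion. Chromatin assembly genes ran from the histone chaperone Asf1b at 12.5 TPM to its paralog Asf1a at 2.94 TPM. S phase cyclins ran from Ccna2 at 18.1 TPM to Ccne2 at 2.56 TPM. Of the nucleotide supply genes, Dut, the dUTPase, was highest at 18.1 TPM.

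The MCM relatives outside the hexamer were lower than Mcm2 to Mcm7: Mcmbp, which binds MCM subunits, was highest at 3.80 TPM, and Mcmdc2, a gene of meiosis, was at 0.08 TPM in both libraries. Of the 8 E2F genes, E2f4, a member that mostly acts as a repressor in cells at rest, was highest at 11.4 and 6.82 TPM, and E2f5 was lowest at 0.65 and 0.67 TPM. The activator E2f1 had 3.51 and 2.11 TPM, and 7 of the 8 reached 1 TPM in both libraries.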

How the data were processed

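Total RNA of 2 libraries of DMSO-treated MEL cells was analysed from gene and transcript tables. Per the deposited readme, the tables were made on mm10 with GENCODE M4. For aligner and counting program, names are not given in the sources used. Columns of the authors' tables, per the file headers, are estimated counts (expected counts, not always whole), TPM, FPKM and, for transcripts, the percent of the gene's TPM. Other deposited columns are posterior means of count and TPM with a posterior SD. The authors' TPM and FPKM total over all rows, 26345 tRNA and spike-in rows included.

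Names, types, G+C and coordinates came from GENCODE M21 on GRCm38, a later release than M4, and matched 42462 of 43346 Ensembl rows. Promoter letters came from a RefSeq table of build GRCm38.p6. Counts were rounded and scaled with TMM in edgeR 4.0.16 (R 4.3.3), with DESeq2 1.42.0 size factors as an alternative. A gene entered at 10 counts in either library, 0.5 was added, and 1.5-fold was the threshold. Intervals are exact Clopper-Pearson at 95% and cover counting error only (no molecular identifiers are described, so reads may repeat a molecule). With 1 group of 2 libraries no test between groups was made and no p-value is given. The scaling and intervals were tested on simulated libraries with counting error only and a small set of genes changed evenly up and down. In the data 21.9% of genes were past 1.5-fold, and that check does not cover a difference so wide.

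The 40 genes and all lists were chosen with earlier results of these data known. All 40 are named. Of the other pathway lists, the highest and lowest by mean TPM and those past 1.5-fold with 100 or more counts are named, except that the E2f1 values were added after they were seen, and that some items are not reported here.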

Additional observations from a re-analysis of the deposited data

How the results depend on the processing

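The count of members at 1 TPM or more in both libraries was 40 under 0.5 TPM, FPKM and each library alone, and 35 at 5 TPM. The median level of the 40 genes moved from 10.5 TPM to 42.6 in FPKM, 79.7 with TPM rescaled to protein-coding genes and 7.82 over protein-coding transcripts, and ran from 9.99 to 11.1 TPM with 1 library left out. Orc1 over the median of Orc2 to Orc6 moved from 0.352 to 0.487 over protein-coding transcripts and ran from 0.294 to 0.411 with 1 library left out. Leaving out 1 library gave 1.99 to 2.74 for Gmnn over Cdt1 and 2.24 to 2.35 for the highest over the lowest MCM gene. No member was past 1.5-fold under any other scaling, minimum, pseudocount or count type run. At 1.2-fold 13 members were past it, 8 higher in replicate 2 and 5 lower, against 52.9% of all genes. On deposited TPM 4 were past 1.5-fold, against 30.4%, and on TPM rescaled to protein-coding genes 1 was, against 27.7%. The protein-coding transcript, 1.2-fold and TPM ratio settings were chosen after seeing the data.

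Over all genes, 3346 of 15272 were past 1.5-fold, against 9197 of 22864 with no minimum and 1581 of 11593 with a minimum of 100 counts. Of the 15272, 1252 were past 2-fold and 8072 past 1.2-fold. The members' median log2 ratio moved from 0.0397 to 0.00870 with total counts, 0.0204 with TMM over protein-coding genes, 0.0700 with no minimum and 0.0198 with a minimum of 100. For the members these settings changed only the library scaling, since every member passed each minimum. The median shift of a member's ratio was -0.0310, -0.0193, 0.0303 and -0.0198, in the same order. Of 280 values of single members under other settings, 270 moved by less than their counting error and 10 by more. Sign changes were Rpa2 (total counts, TMM over protein-coding genes, minimum of 100), Orc5 and Cdc45 (total counts), and Orc2, Mcm10 and Pole (no minimum). No paired analysis was possible because the 2 libraries form 1 group.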
